A study of Mus musculus with 5 samples.

Results

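Nodal, Lefty and Activin signalling genes were followed in mouse embryonic stem (ES) cells with and without C3G. The 10 genes were chosen by name for their roles in the pathway: the ligand Nodal, its co-receptor Tdgf1, the receptors Acvr1b and Acvr2b, the inhibitors Lefty1, Lefty2 and Smad7, the signal carriers Smad2 and Smad3, and the target Eomes. They are 10 of the 55147 gene symbols in the data.

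Nodal and the Activins are secreted ligands of the TGF-beta family. They join type I and type II receptors at the cell surface, Nodal with help from the co-receptor Tdgf1 (also called Cripto), and the receptors phosphorylate Smad2 and Smad3, which enter the nucleus with Smad4 and act on genes with partners such as Foxh1. Lefty1 and Lefty2 are secreted antagonists of Nodal and are themselves targets of the pathway, which forms a feedback loop. In the early mouse embryo the pathway patterns the epiblast and drives mesoderm and endoderm formation, and it is active in cultured ES cells.

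C3G, encoded by Rapgef1, is an exchange factor that activates small GTPases such as Rap1. The samples were 3 of wild-type (WT) E14Tg2a cells, a feeder-independent mouse ES line, and 2 of C3G null cells of the same line, in which CRISPR knock-in put a puromycin cassette in place of early exons of the gene. All were grown untreated on gelatin in medium with serum and LIF, a cytokine that holds ES cells in self-renewal, and total RNA was sequenced. The study describes the samples of each group as independent. The labels do not say what was separate between them, nor which knockout clone each C3G null sample came from, so p-values measure only the spread between these samples.

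Values are TPM, the share of each transcript among all transcripts of a sample after division by its length, summed by gene. TPM keeps no record of sequencing depth, so the depth is unknown. Small non-coding RNAs took 55.5%, 56.6% and 61.7% of the TPM in WT and 72.7% and 60.8% in C3G null, and protein-coding genes 31.8%, 31.3% and 28.8% against 18.6% and 26.0%. TPM was therefore scaled between samples by the median of ratios (scaled TPM), and the fold changes on log2(TPM + 1) were tested with limma, with p adjusted over all 12518 genes that passed the filter on low values. This log scale understates the change of low genes. Fold changes are C3G null against WT throughout, and for each of the 10 genes the result on TPM as deposited stands beside it, since without scaling the median of all tested genes moved from 0.01 to -0.55 on the log2 scale. In bulk RNA, fewer cells of a type and less RNA per cell cannot be told apart.

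Rapgef1, the targeted gene, had 8.66, 8.45 and 8.73 scaled TPM in WT and 6.34 and 6.13 in C3G null. Each C3G null value was under each WT value, and the log2 fold change was -0.41 (SE 0.06, limma adjusted p = 0.00444). It was -1.02 on TPM as deposited (limma adjusted p = 0.000304) and did not pass once the trend of each sample on transcript length and GC was removed (-0.11, limma adjusted p = 0.239). The level is taken over all exons, most of which the cassette left in place, so it checks the genotype only weakly.

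Among the 10 genes, the main changes in C3G null cells were more Lefty1 and less Smad3. Lefty1 was 1.70-fold higher and Smad3 was 1.96-fold lower in mean scaled TPM. Smad2 fell by a smaller amount, and Nodal, Tdgf1, Acvr1b, Acvr2b, Lefty2, Smad7 and Eomes did not pass the test. Thus 1 gene rose, 2 fell and 7 did not pass, where 14.1% of all tested genes rose and 16.6% fell at a limma adjusted p under 0.05. All 10 passed the filter on low values. With the trend on length and GC content of the transcripts removed, below called the length and GC correction, 2 of the 10 rose and 1 fell, where 16.7% of all tested genes rose and 14.2% fell. The median log2 fold change of the 10 was -0.05, against 0.01 for all tested genes. On TPM as deposited 0 of the 10 rose by limma, also 0 at an unadjusted p under 0.05, and 5 fell (Nodal, Acvr1b, Smad7, Smad2 and Smad3), against 1.45% higher and 56.8% lower among all tested genes.

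**Figure D1:**
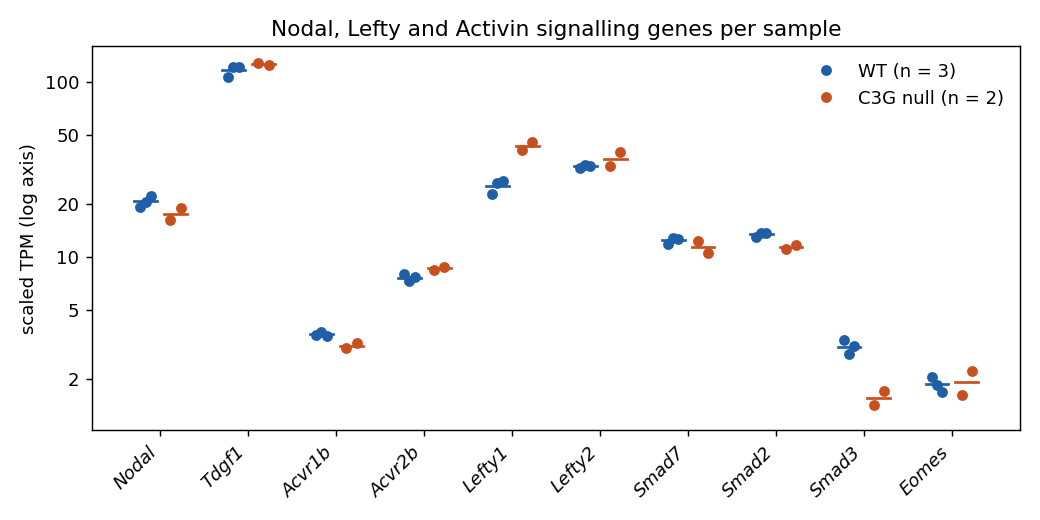
Scaled TPM (log axis) of the 10 Nodal, Lefty and Activin signalling genes in each WT sample (blue, n = 3) and C3G null sample (orange, n = 2), with lines at the group means. Lefty1 lies at 41.1 and 45.6 in C3G null, above all WT samples, and Smad3 at 1.42 and 1.72, below all WT samples; unscaled, the Lefty1 groups overlap.

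The ligand Nodal was measured at 19.4, 20.8 and 22.3 scaled TPM in WT and at 16.4 and 19.0 in C3G null. Each C3G null value was under each WT value, though by little. On the log2 scale the fold change was -0.22, with a 95% interval of -0.45 to 0.00, and did not pass (limma adjusted p = 0.119). As deposited, Nodal was at 25.9, 25.3 and 24.7 TPM against 10.1 and 17.2, a log2 fold change of -0.88 that passed (limma adjusted p = 0.00358), or -0.33 relative to the shift of all tested genes. It also passed after quantile normalization (-0.29, limma adjusted p = 0.0471) and scaling to the protein-coding total (-0.44, limma adjusted p = 0.0154). It was -0.11 with the length and GC correction (limma adjusted p = 0.367) and -0.12 without C3G null replicate 1 (limma adjusted p = 0.413), and passed in 3 of 16 alternatives. Nodal has 1 annotated transcript (chr10:61417972-61425338, plus strand, GRCm38), so no shift between isoforms enters this value.

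Tdgf1, the membrane-anchored co-receptor that Nodal needs for signalling, was the most abundant of the 10 genes in both groups. It had 106, 122 and 122 scaled TPM in WT and 128 and 125 in C3G null. The log2 fold change was 0.12 (95% interval -0.11 to 0.35, limma adjusted p = 0.372), and it turned to -0.57 as deposited, -0.22 after quantile normalization and -0.10 on the protein-coding total, none of which passed. Its main transcript, Tdgf1-201, held 88.3%, 89.8% and 88.7% of the gene in WT and 89.7% and 90.8% in C3G null.

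The receptors differed little between the groups. Acvr1b (ALK4), the type I receptor for Activin and Nodal, had 3.60, 3.71 and 3.55 scaled TPM in WT and 3.02 and 3.22 in C3G null, a log2 fold change of -0.16 (95% interval -0.32 to -0.01, limma adjusted p = 0.097). As deposited it was -0.69 and passed (limma adjusted p = 0.00714), and with the length and GC correction it turned to 0.04. Acvr2b, a type II receptor, had 7.96, 7.29 and 7.66 scaled TPM in WT and 8.45 and 8.83 in C3G null, with a log2 fold change of 0.16 (95% interval 0.00 to 0.32, limma adjusted p = 0.113). Its direction depended on the scaling, at -0.46 as deposited and -0.04 on the protein-coding total, and it passed upward with the length and GC correction (0.31, limma adjusted p = 0.0136), but not with the replicate block added to that correction (0.31, limma adjusted p = 0.0624). The groups did not overlap for either receptor in scaled TPM, with C3G null below WT for Acvr1b and above WT for Acvr2b, while as deposited C3G null was below WT for both. Acvr1b was measured on 1 transcript, and Acvr2b on several, of which Acvr2b-205 held 68.1%, 68.6% and 61.5% of the gene in WT and 58.5% and 64.8% in C3G null.

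Of the inhibitors, Lefty1 rose. It had 22.8, 26.4 and 27.2 scaled TPM in WT and 41.1 and 45.6 in C3G null. Every C3G null sample lay above every WT sample, and the means were 25.5 ± 2.32 (SD, n = 3) and 43.4 ± 3.13 (SD, n = 2). The log2 fold change was 0.75 (SE 0.10, 95% interval 0.51 to 0.99, limma adjusted p = 0.00339). It passed in 15 of the 16 alternatives and with each sample left out in turn, when it was between 0.67 and 0.82. The exception was TPM as deposited, where the groups overlapped at 30.5, 32.2 and 30.1 TPM against 25.5 and 41.3, with a log2 fold change of 0.07 (limma adjusted p = 0.819), or 0.62 relative to the shift of all tested genes.

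Lefty2, the neighbouring gene with the same role, did not pass. Its scaled TPM was 32.3, 33.7 and 33.4 in WT and 33.0 and 39.8 in C3G null. The groups overlapped, since C3G null sample 1 lay within the WT range and only sample 2 above it. The log2 fold change was 0.13 (95% interval -0.10 to 0.35, limma adjusted p = 0.345), and it turned to -0.55 as deposited (limma adjusted p = 0.0661). That Lefty1 passed and Lefty2 did not is no test of their difference, and the ratio of their levels in each sample is given with the other ratios.

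Lefty1 (chr1:180935022-180938400) and Lefty2 (chr1:180893108-180899103) lie on the plus strand of chromosome 1 (GRCm38), and their likeness bears on how well reads can be assigned. In GENCODE M21 the coding sequences of Lefty1-201 and Lefty2-201 are 1104 bases each and align without gaps, with 1014 identical and 90 different bases, or 91.8% identity. Windows of 50 bases shared exactly with the other transcript made up 17.9% of those in Lefty1-201 and 11.6% of those in Lefty2-201. Shared windows of 100 bases made up 4.80% of those in Lefty1-201 and 3.07% of those in Lefty2-201, and 0 windows of 150 bases were shared. A read that falls whole within a stretch they share could come from either gene, so the split between them is uncertain to that extent. The read length was not used here. The 60 coding bases with the most differences show where reads do tell the genes apart. They lie in exon 1, at coding positions 34 to 93, at chr1:180935143-180935202 in Lefty1 and chr1:180893217-180893276 in Lefty2, and differ at 18 bases, which are in capitals:
Lefty1: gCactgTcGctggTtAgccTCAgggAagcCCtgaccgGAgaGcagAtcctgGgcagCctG
Lefty2: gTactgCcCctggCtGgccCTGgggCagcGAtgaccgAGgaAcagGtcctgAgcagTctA

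At the transcript level both transcripts of Lefty1 were higher in C3G null, and the coding one held most of the gene. Lefty1-201 was at 23.7 ± 2.04 scaled TPM in WT (SD, n = 3) and 40.2 ± 2.09 in C3G null (SD, n = 2). Its share of the gene was 93.7%, 92.1% and 93.1% in WT and 94.0% and 91.4% in C3G null. The rest came from Lefty1-202, a transcript with a retained intron, at 1.80 ± 0.33 scaled TPM in WT and 3.19 ± 1.04 in C3G null. Lefty2-201 held 92.5%, 91.6% and 95.4% of its gene in WT and 91.4% and 91.9% in C3G null.

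Smad7, the intracellular inhibitor that blocks the receptors and marks them for breakdown, did not pass. It had 11.8, 12.8 and 12.8 scaled TPM in WT and 12.4 and 10.6 in C3G null, and the groups overlapped. The log2 fold change was -0.11 (95% interval -0.32 to 0.09, limma adjusted p = 0.354). It was -0.75 as deposited (limma adjusted p = 0.00985), -0.32 on the protein-coding total (limma adjusted p = 0.0197) and 0.12 with the length and GC correction. Its size rested on single samples, at -0.22 without C3G null replicate 1 and -0.0041 without replicate 2. Its short transcript Smad7-204 varied widely between samples, from 12.2% to 34.8% of the gene in WT, and was at 21.4% and 2.51% in C3G null.

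The receptor-activated Smads were lower. Smad3 had 3.36, 2.79 and 3.09 scaled TPM in WT and 1.42 and 1.72 in C3G null. The groups did not overlap, with C3G null lower, at means of 1.57 ± 0.21 (SD, n = 2) against 3.08 ± 0.29 (SD, n = 3). The log2 fold change was -0.67 (SE 0.09, 95% interval -0.89 to -0.44, limma adjusted p = 0.00414) and stayed negative in all 15 alternatives, from -1.11 as deposited (limma adjusted p = 2.15e-06) to -0.30 with a pseudocount of 5 (limma adjusted p = 0.00452). With the length and GC correction it was -0.45 (limma adjusted p = 0.00905). Smad3 reached the filter minimum of 1 TPM in all WT samples and in 1 C3G null sample, and with no filter it also passed (limma adjusted p = 0.0176). It missed the threshold only when that correction was joined with the replicate block (limma adjusted p = 0.0509). The full-length transcript Smad3-201, the single one above 0.5 TPM, was at 2.79 ± 0.14 scaled TPM in WT and 1.29 ± 0.03 in C3G null.

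Smad2, the other signal carrier, had 13.0, 13.7 and 13.8 scaled TPM in WT and 11.1 and 11.7 in C3G null. Both C3G null samples were lower than all WT samples, and the log2 fold change was -0.23 (SE 0.06, 95% interval -0.38 to -0.07, limma adjusted p = 0.0424). This call was close to the threshold: limma adjusted p ran from 0.00333 to 0.234 over 16 alternatives and passed in 7, among them TPM as deposited (-0.87). It was lost with the length and GC correction (-0.16, limma adjusted p = 0.108) and without WT replicate 2 or 3 or either C3G null replicate (limma adjusted p = 0.138, 0.0977, 0.144 and 0.0807), though with a sample left out the fold change stayed between -0.26 and -0.19. Among its transcripts, Smad2-201 was at 4.58 ± 0.46 scaled TPM in WT (SD, n = 3) and 3.58 ± 0.29 in C3G null (SD, n = 2), and Smad2-205 at 4.20 ± 0.11 and 4.38 ± 0.30. Smad2-202, Smad2-203 and Smad2-206 were lower in abundance, with means of 1.13, 1.84 and 1.71 in WT and 0.38, 1.48 and 1.54 in C3G null, where Smad2-202 had SDs of 0.40 and 0.43. Differences between transcripts were not tested.

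Eomes, a T-box factor and target of the pathway in mesoderm and endoderm precursors, was the lowest of the 10 genes in WT. It had 2.05, 1.86 and 1.70 scaled TPM in WT and 1.63 and 2.22 in C3G null, so the C3G null samples lay on either side of the WT samples. Its log2 fold change was 0.02 (95% interval -0.25 to 0.29, limma adjusted p = 0.904) and -0.41 as deposited (limma adjusted p = 0.0611).

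In WT the levels, in mean scaled TPM, ran from Tdgf1 (117) through Lefty2 (33.2), Lefty1 (25.5), Nodal (20.8), Smad2 (13.5), Smad7 (12.5), Acvr2b (7.64), Acvr1b (3.62) and Smad3 (3.08) to Eomes (1.87). The sample ranges of neighbours in this order did not overlap. In C3G null the order was Tdgf1 (127), Lefty1 (43.4), Lefty2 (36.4), Nodal (17.7), Smad7 (11.5), Smad2 (11.4), Acvr2b (8.64), Acvr1b (3.12), Eomes (1.93) and Smad3 (1.57). There Lefty1 stood above Lefty2, while Smad7 and Smad2, and Eomes and Smad3, overlapped in their sample ranges.

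Ratios between genes within a sample do not change when a sample is scaled by a single factor, and they are given as a description, with no test. Lefty1 and Lefty2 together over Nodal, the inhibitors against their ligand, gave 2.85, 2.90 and 2.71 in WT and 4.53 and 4.49 in C3G null. The C3G null ratios were 1.60-fold higher, a difference far larger than the spread in either group. Lefty1 over Lefty2 was 0.71, 0.78 and 0.82 in WT and 1.25 and 1.15 in C3G null, so Lefty2 was the more abundant in every WT sample and Lefty1 in every C3G null sample.

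Smad3 over Smad2 was 0.26, 0.20 and 0.22 in WT and 0.13 and 0.15 in C3G null, 1.66-fold lower, with no overlap. Acvr2b over its relative Acvr2a was 2.34, 2.44 and 2.75 in WT and 2.97 and 3.79 in C3G null. Tdgf1 over Nodal was 5.49, 5.86 and 5.46 against 7.81 and 6.60. These last ratios also did not overlap, but rested more on single samples: the log2 difference of Acvr2b over Acvr2a was 0.42, and 0.60 without C3G null replicate 1 and 0.25 without replicate 2. That of Tdgf1 over Nodal was 0.36, and 0.24 and 0.48 without the same samples.

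**Figure D2:**
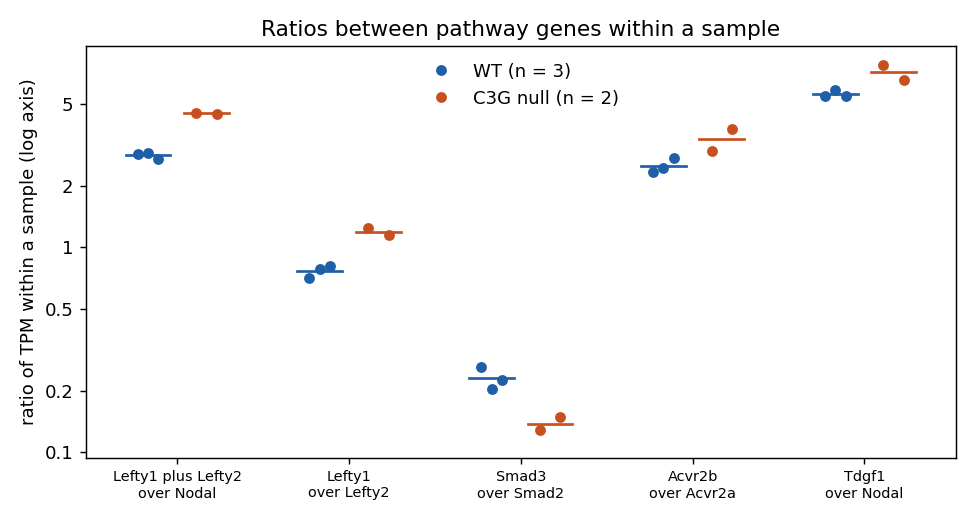
Ratios of TPM within each sample (log axis) in WT (blue, n = 3) and C3G null (orange, n = 2), with lines at the group means. Lefty1 plus Lefty2 over Nodal is 4.53 and 4.49 in C3G null, above all WT samples, and Smad3 over Smad2 is 0.13 and 0.15, below all WT samples.

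The other genes of the pathway, 45 by name, were lower where they passed on scaled values after the filter. Of these 27 could be tested and 18 were below the filter on low values. Of the 27 tested, 11 fell and 16 did not pass, and 0 rose by limma, with 1 higher at an unadjusted p under 0.05 and 14 lower. Their median log2 fold change was -0.19, against 0.01 for all tested genes, of which 16.6% fell. As deposited 21 fell and 0 rose (0 at an unadjusted p under 0.05), where 56.8% of all tested genes fell. With the length and GC correction 4 fell and 3 rose, where 14.2% and 16.7% of all tested genes did, so the share that fell was then near that of all tested genes. Each of the 11 also fell as deposited. Of the 11, 2 reached 1 TPM in no C3G null sample, so they entered the test through WT alone, and 2 more reached it in 1 C3G null sample; with no filter 7 of the 11 passed. The 11 on scaled values became 6 without WT replicate 2, and with C3G null replicate 1 or 2 left out they became 5 and 7.

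Among the ligands, 2 of the 4 tested fell, where 16.6% of all tested genes did. Tgfb2, a TGF-beta ligand that signals through other receptors to the same Smads, was at 1.21, 0.94 and 1.01 scaled TPM in WT and 0.08 and 0.07 in C3G null. It was near 0 in both C3G null samples, with a log2 fold change of -0.93 (SE 0.09, limma adjusted p = 0.00132). It entered the test only through WT, and passed in all 15 alternatives run for it, among them the fit with no filter (limma adjusted p = 0.0063). Inhbb, which encodes the beta B chain of Activin and inhibin, was at 2.32, 2.31 and 2.36 scaled TPM in WT and 1.44 and 1.52 in C3G null. Its log2 fold change was -0.43 (limma adjusted p = 0.00587), and -0.08 with the length and GC correction, which did not pass (limma adjusted p = 0.443). Gdf3 and Tgfb1 were tested and did not pass. Gdf1, Gdf11, Inhba, Inha, Mstn and Tgfb3 were below the filter. With no filter Inhba passed downward (-0.17, limma adjusted p = 0.0225). It was barely detected in WT, at 0.13, 0.15 and 0.09 scaled TPM, and listed at 0 in both C3G null samples.

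The proteases that cut the ligand precursors, Furin and Pcsk6 (PACE4), both fell, where 16.6% of all tested genes did. Furin was at 3.35, 3.21 and 2.84 scaled TPM in WT and 1.84 and 2.25 in C3G null (log2 fold change -0.44, limma adjusted p = 0.0165). Pcsk6 was at 7.99, 6.69 and 5.67 against 4.43 and 4.37 (log2 fold change -0.52, limma adjusted p = 0.0262). Neither passed with the length and GC correction (limma adjusted p = 0.209 and 0.0635), without WT replicate 2 (0.0539 and 0.0668) or without C3G null replicate 1 (0.0815 and 0.0999), and Pcsk6 also not without C3G null replicate 2 (0.107). The Pcsk6 fold change itself hardly moved in those fits with fewer samples, at -0.52, -0.53 and -0.51. With no filter Furin and Pcsk6 also did not pass (0.0505 and 0.0723).

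Of the receptors, Tgfbr1 (ALK5), the type I receptor for TGF-beta, was at 6.40, 6.68 and 6.69 scaled TPM in WT and 5.45 and 5.18 in C3G null, and fell by 0.27 on the log2 scale (limma adjusted p = 0.0219). This call was lost with the length and GC correction (limma adjusted p = 0.083) and without WT replicate 2 or 3 or either C3G null replicate (limma adjusted p = 0.0866, 0.0578, 0.0511 and 0.0892), though with a sample left out the fold change stayed between -0.30 and -0.23. Acvr2a was tested and did not pass. Acvr1c and Tgfbr2 were below the filter, as were the co-receptors Cfc1 and Tgfbr3. With no filter Tgfbr2 and Tgfbr3 passed downward (-0.61 and -0.40, limma adjusted p = 0.013 and 0.0243). Both were low, with means of 0.82 and 0.54 scaled TPM in WT and 0.19 and 0.16 in C3G null. The 6 Smads and Smad partners of the list, Smad4, Foxh1, Trim33, Zfyve9, Tgif1 and Tgif2, were all tested. On scaled values 0 rose and 0 fell by limma, where 14.1% and 16.6% of all tested genes did. At an unadjusted p under 0.05 also 0 rose and 0 fell. As deposited 5 fell, where 56.8% of all tested genes did, and with the length and GC correction 1 rose, where 16.7% did.

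Of 11 tested inhibitors and turnover factors, 4 fell, where 16.6% of all tested genes did. With the length and GC correction 1 fell and 2 rose, where 14.2% and 16.7% of all tested genes did. Pmepa1, which binds Smad2 and Smad3 and limits their activation, was at 3.54, 3.41 and 3.32 scaled TPM in WT and 2.18 and 2.27 in C3G null. Its log2 fold change of -0.45 passed (SE 0.06, limma adjusted p = 0.00424), also with the length and GC correction (-0.26, limma adjusted p = 0.0229), but not with the replicate block added to that correction (-0.27, limma adjusted p = 0.0771). Ski, a corepressor that binds Smads, was at 13.4, 12.7 and 12.1 against 8.28 and 9.81 scaled TPM (log2 fold change -0.45, limma adjusted p = 0.0131). Smad6, an inhibitory Smad, changed by -0.37 (limma adjusted p = 0.0459) and Smurf1, a ubiquitin ligase that targets receptors and Smads, by -0.26 (limma adjusted p = 0.0232). With the length and GC correction Ski, Smad6 and Smurf1 did not pass (limma adjusted p = 0.101, 0.414 and 0.887), and Smurf1 did not pass in any fit that left out a sample (0.0501 to 0.0956), where its fold change stayed between -0.30 and -0.22. Smad6 entered the test only through WT replicates 1 and 2, could not be tested without either, and did not pass with no filter (0.117) or after quantile normalization (-0.14, 0.343). Smad6 was also lost without C3G null replicate 1 or 2, where its fold change was -0.31 and -0.46. Ski was lost without C3G null replicate 1, at -0.34. Fst, Bambi, Skil, Smurf2, Ppm1a, Nedd4l and Rnf111 were tested and did not pass on scaled values, though Skil and Smurf2 passed upward with the length and GC correction (0.28 and 0.21, limma adjusted p = 0.0324 and 0.0407). Cer1, Dand5 and Fstl3 were below the filter.

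Among the targets, T (brachyury), the T-box factor of early mesoderm, was at 4.25, 3.27 and 3.90 scaled TPM in WT and 0.91 and 1.46 in C3G null. All WT samples were above both C3G null samples, with means 3.22-fold apart and a log2 fold change of -1.15 (SE 0.14, limma adjusted p = 0.00254). It fell in all 15 alternatives run for it, among them the fit with no filter (limma adjusted p = 0.0131). Mixl1, Gsc, Foxa2, Lhx1 and Sox17 were below the filter. With no filter Sox17, at 0.42, 0.43 and 0.31 scaled TPM in WT and 0.94 and 1.07 in C3G null, passed upward (0.53, limma adjusted p = 0.0235). It was the 1 pathway gene higher in that fit, where 10 were lower, among them Tgfbr2, Tgfbr3 and Inhba. That fit tested 33039 genes in all, of which 1430 were higher and 1895 lower.

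**Figure D3:**
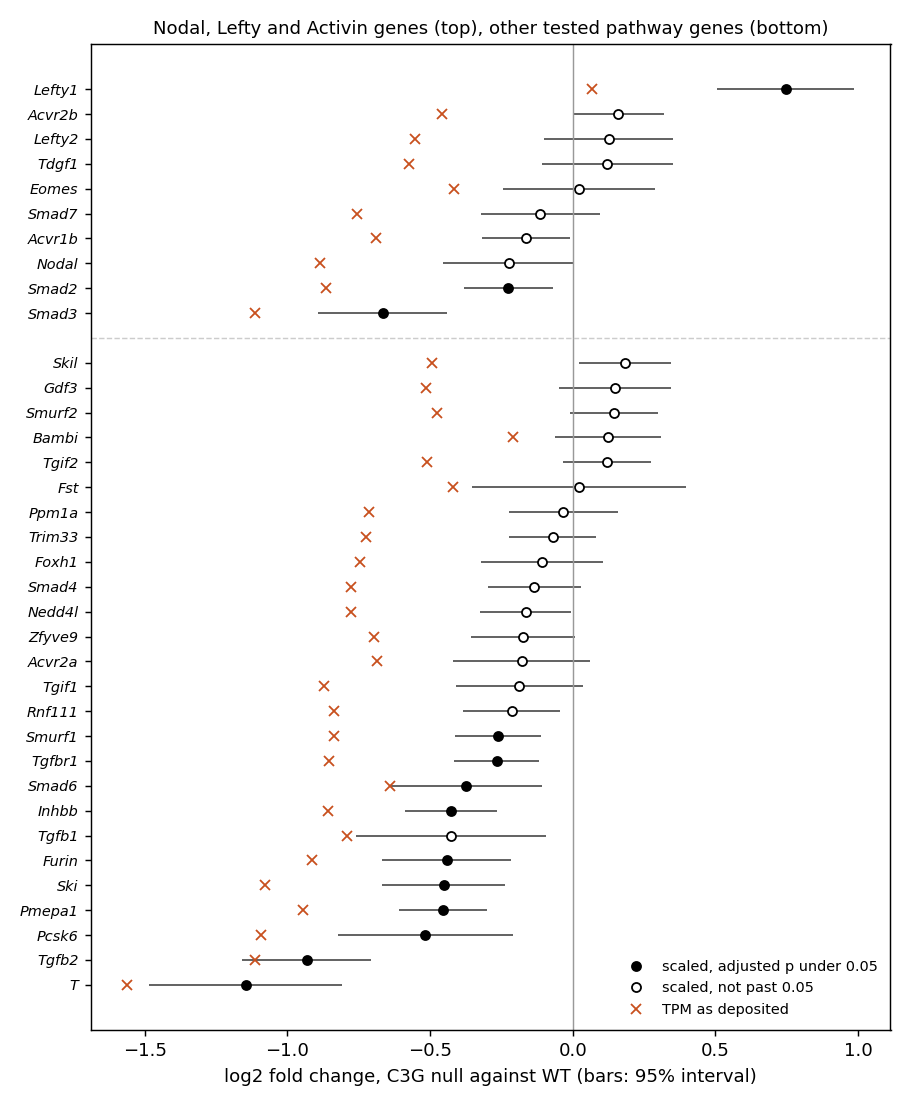
Log2 fold changes, C3G null (n = 2) against WT (n = 3), of the 10 Nodal, Lefty and Activin signalling genes (top) and other tested pathway genes (bottom). Circles are scaled values with 95% intervals, filled where the limma adjusted p is under 0.05, and crosses are TPM as deposited, which lie lower for every gene drawn; Lefty1 is at 0.75 scaled and 0.07 as deposited, and T at -1.15 and -1.56.

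Over the 5 samples, the 3 tested genes whose profile was nearest to that of Nodal were Yipf4, a Golgi membrane protein, L3hypdh, a hydroxyproline dehydratase, and Rnaset2b, a ribonuclease. Their root mean square differences from Nodal, on centred log2(scaled TPM + 1), were 0.019, 0.029 and 0.029, against a median of 0.196 over all tested genes. Yipf4 was at 8.78, 9.57 and 10.3 scaled TPM in WT and 7.66 and 8.70 in C3G null. None of the 3 passed on scaled values (limma adjusted p = 0.139, 0.188 and 0.134), and their likeness to Nodal on that scale follows from how they were chosen. Each fell and passed as deposited (limma adjusted p = 0.00447, 0.017 and 0.00518), where 56.8% of all tested genes fell. Nodal did too, but this also follows largely from the choice, since scaling changed each sample by a single factor.

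Markers of cell states were read beside these genes. The ES cell markers Pou5f1, Sox2, Nanog, Zfp42 and Esrrb were abundant in all samples and fit the label, with summed levels of 527, 576 and 627 scaled TPM in WT and 665 and 654 in C3G null, led by Pou5f1. As deposited the sums lay the other way, at 704, 703 and 693 TPM against 411 and 593. Of these 5, 0 rose and 0 fell by limma, where 14.1% and 16.6% of all tested genes did. At an unadjusted p under 0.05, 2 were higher and 0 lower. With the length and GC correction Esrrb passed upward (0.34, limma adjusted p = 0.00909), while as deposited it was at -0.57 (limma adjusted p = 0.0621). Of the 4 primed epiblast markers, which are higher after exit from the naive state, 2 rose, where 14.1% of all tested genes did. Otx2 was at 9.24, 8.58 and 9.15 scaled TPM in WT and 19.7 and 18.1 in C3G null (log2 fold change 0.99, limma adjusted p = 0.00046). Dnmt3b was the other (0.44, limma adjusted p = 0.0151). As deposited neither passed, and Dnmt3b turned direction (0.34 and -0.24, limma adjusted p = 0.217 and 0.416). Dnmt3b was also lost after quantile normalization (0.30, limma adjusted p = 0.0595) and on the protein-coding total (0.22, limma adjusted p = 0.158). The same held without WT replicate 2 (0.42, limma adjusted p = 0.0606) and without C3G null replicate 2 (0.32). Fgf5 did not pass, except without C3G null replicate 1 (0.54, limma adjusted p = 0.0308). Pou3f1 did not pass on scaled values (0.02, limma adjusted p = 0.885) and passed with the length and GC correction (0.39, limma adjusted p = 0.012). The summed level of the 4 was 50.2, 48.1 and 48.9 in WT and 68.8 and 77.3 in C3G null, led by Dnmt3b, while as deposited the groups overlapped, at 67.0, 58.7 and 54.0 TPM against 42.6 and 70.1.

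Markers of other lineages were low. Beside their counts, 16.6% of all tested genes fell on scaled values. The 4 mesoderm markers, led by T in WT and by Eomes in C3G null, summed to 6.67, 5.43 and 5.87 scaled TPM in WT and 2.68 and 3.82 in C3G null; 2 could be tested, T and Eomes, and T fell. The 4 trophoblast markers, led by Cdx2 in WT, summed to 1.92, 1.75 and 1.52 against 0.27 and 0.32. In C3G null the means of Gata3, Hand1 and Cdx2 were close, at 0.095, 0.088 and 0.085. Only Cdx2 could be tested, and it fell, though it entered the test through 2 WT samples alone (log2 fold change -0.73, limma adjusted p = 0.00227, and 0.00653 with no filter). Hand1 and Gata3, below the filter, passed downward with no filter (-0.51 and -0.28, limma adjusted p = 0.0233 and 0.026). The 5 fibroblast markers, led by Thy1 in WT and by Pdgfra and Thy1 alike in C3G null (means of 1.43 each), summed to 4.57, 4.51 and 3.92 against 2.80 and 3.18. Of these Col1a1 (-0.96, limma adjusted p = 0.00135) and Thy1 (-0.36, limma adjusted p = 0.0227) could be tested and fell, but Col1a1 entered the test through WT alone (limma adjusted p = 0.0066 with no filter). Thy1 did not pass with no filter (0.0664), nor without WT replicate 1 or 2 or either C3G null replicate (0.0548, 0.076, 0.055 and 0.107), though with a sample left out its fold change stayed between -0.43 and -0.30. Col1a2 and Col3a1 were below the filter and passed downward with no filter (-0.31 and -0.52, limma adjusted p = 0.0095 and 0.0429). Col3a1 was listed at 0 in C3G null sample 1. Pdgfra, below the filter, lay the other way, at 0.35, 0.32 and 0.45 scaled TPM in WT and 1.21 and 1.65 in C3G null, and passed upward with no filter (0.82, limma adjusted p = 0.0155). The 4 endoderm markers, Sox17, Gata6, Gata4 and Foxa2, were all below the filter and summed to 1.76, 1.78 and 1.52 scaled TPM in WT and 2.94 and 3.31 in C3G null, while as deposited the sums overlapped, at 2.35, 2.17 and 1.68 TPM against 1.82 and 3.0. Sox17 and Gata6 lay above all WT samples in both C3G null samples, scaled and as deposited, and passed upward with no filter (0.53 and 0.52, limma adjusted p = 0.0235 and 0.0157). The part of these markers, or of cells that carry them, in the changes of Lefty1, Smad3, Tgfb2 and T was not tested.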

How the data were processed

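Total RNA of 5 samples of E14Tg2a cells, 3 WT and 2 C3G null, had been sequenced. The TPM values per transcript were deposited by the authors; the processing notes of the submitters name bcl2fastq 2.20, FastQC 0.11.7, STAR 2.5.1b and RSEM 1.2.31 with the builds mm10 and GRCm38, without their order. Of 142647 transcripts, 141524 matched GENCODE M21 and were summed by gene symbol, giving 55147 symbols; 1123 were left out. TPM keeps no depth, so no counting error can be given.

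Genes with at least 1 TPM in at least 2 samples (12518) were tested. TPM was scaled by the median of ratios (factors 1.34, 1.22 and 1.10 for WT, 0.62 and 0.91 for C3G null) and fitted as log2(TPM + 1) with limma 3.58.1 in R 4.3.3, with a mean-variance trend, a two-sided test, Benjamini-Hochberg adjustment over all tested genes and a threshold of 0.05. The same test was run on TPM as deposited. The step was tested on simulated data. Alternatives changed the scaling, pseudocount, filter, variance trend, length and GC correction, replicate block and samples. Text names the 10 genes, Rapgef1, pathway genes that passed (others only as tested or below the filter), the 3 genes nearest to Nodal and the cell markers. Genes and lists were chosen with earlier results of these data known. Transcripts were described from a mean of 0.5 TPM in a group. A gene of the pathway list, which is kept in the counts, and a stretch of sequence are not reported here.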

Additional observations from a re-analysis of the deposited data

How the results depend on the processing

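Each sample is 1 library of unknown depth and the groups hold 3 and 2, so the limits lie in the scaling and in single samples. The cause of each change named here was not tested, except where fewer genes or samples entered a fit. Without a C3G null sample the lone one is assumed to vary like WT. Counts are at a limma adjusted p under 0.05. Of the 10 genes (1 higher, 2 lower), 0 were higher and 5 lower on TPM as deposited, 5 were lower on the protein-coding total, and 1 was lower with no filter, with a filter of 5 TPM, which took Smad3 out of the test, with limma without the trend and with the length and GC correction, which gave 2 higher. Leaving out a sample in turn gave 1 to 2 lower. Of the 27 tested pathway genes (0 higher, 11 lower), 21 were lower as deposited and 20 on the protein-coding total. The filter of 5 TPM left 15 pathway genes in the test and 4 of the 11, and these 4 passed. The length and GC correction gave 4 lower and 3 higher. With no filter 44 could be tested, of which 10 were lower, 7 of them among the 11, and 1 was higher. In that fit 1895 of all 33039 tested genes were lower and 1430 higher. Leaving out a WT sample gave 6 to 10 lower. Of all tested genes (1760 higher, 2083 lower), 181 were higher and 7109 lower as deposited, 707 and 3732 on the protein-coding total, 1145 lower with the filter of 5 TPM, and 909 to 1579 higher and 1385 to 1880 lower with a sample left out. Of the calls, the share that was higher was 45.8% scaled, 2.48% as deposited and 15.9% on the protein-coding total, which moved the median of all tested genes to -0.17.

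The replicate numbers were not taken to pair the samples. Deviations from the group mean correlated at -0.18 for number 1 and 0.18 for number 2. With 2 C3G null samples their deviations mirror each other, so these correlations are not separate checks and cannot decide on pairing. The replicate block joined C3G null replicate 2 to WT replicate 2, though its data column carries another number. With the replicate block, 1489 genes were higher and 1816 lower, and 1 of the 10 was lower. Smad2, Tgfbr1 and Smurf1 did not pass (limma adjusted p = 0.134, 0.0894 and 0.0928). Their log2 fold changes were then -0.21, -0.26 and -0.25, against -0.23, -0.27 and -0.26 without the block. The replicate block with the length and GC correction gave 0 of the 10 lower, 1 pathway gene higher and 4 lower, and 1339 genes lower.

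Directions turned for several genes. Log2 fold changes as deposited, after quantile normalization and on the protein-coding total were -0.57, -0.22 and -0.10 for Tdgf1 and -0.55, -0.015 and -0.091 for Lefty2, -0.52, -0.30 and -0.044 for Pou5f1, -0.49, -0.12 and -0.022 for Zfp42 and -0.57, -0.025 and -0.10 for Esrrb. As deposited Sox2 was -0.46, Nanog -0.40, Fgf5 -0.14 and Dnmt3b, which had passed upward, -0.24. As deposited and on the protein-coding total fold changes were -0.46 and -0.039 for Acvr2b, -0.46 and -0.14 for Pou3f1, which was -0.020 with the replicate block, and -0.41 and -0.12 for Eomes, which was -0.022 with the replicate block. With the length and GC correction, and with the replicate block added, they were 0.043 and 0.046 for Acvr1b and 0.12 and 0.15 for Smad7. With a sample left out Lefty2 ranged from -7e-04 to 0.26, Eomes from -0.12 to 0.17 and Pou3f1 from -0.10 to 0.15. L3hypdh was 0.0095 after quantile normalization. Smurf1, which had passed, was 0.014 with the replicate block and the length and GC correction. With a sample left out, the log2 difference ran from 0.25 to 0.60 for Acvr2b over Acvr2a and from 0.24 to 0.48 for Tdgf1 over Nodal.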
